A study of Mus musculus with 8 samples.

Results

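The genes described here are the 3 D cyclins, 3 cyclin-dependent kinases of G1 and the 4 INK4 inhibitors of the mouse, 10 genes of the 49315 in the count tables. They were taken by symbol (Ccnd1, Ccnd2, Ccnd3, Cdk4, Cdk6, Cdk2, Cdkn2a, Cdkn2b, Cdkn2c and Cdkn2d), and all 10 were matched to an Ensembl identifier. The libraries are bulk RNA sequencing of heart muscle cells of C57/Bl6 mice, obtained at embryonic day 12.5 from male and female embryos pooled together and kept in culture. The control group is 4 libraries of cells in control medium, and the simvastatin group is 4 libraries of cells in medium with 10 µM simvastatin, an inhibitor of HMG-CoA reductase. No genetic change is named for either group, and the sources used here do not give the length of treatment. No label states whether replicates were separate cultures; if they were not, the spread behind each p-value is technical. The column headers number the libraries 1 and 2 within each of 2 sets, so replicates 1 and 2 of a group share header number 1 and replicates 3 and 4 share number 2, and n = 4 may stand for fewer cultures. The comparison asks how the machinery that commits a cell to division differs between cells with and without the drug.

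D cyclins are made in response to growth signals and bind CDK4 or CDK6. The active kinases phosphorylate the retinoblastoma protein RB and its relatives, which then release E2F transcription factors, and E2F raises the genes of DNA replication and cyclin E, the activator of CDK2. INK4 proteins bind CDK4 and CDK6 and keep them from D cyclins, while the CIP/KIP proteins act mainly on CDK2 complexes. Heart muscle cells of the embryo still divide, and mouse embryos that lack all D cyclins die before birth with defects of heart and blood.

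Promoter sequences were read for 8 of the 10 genes from RefSeq (GRCm38.p6), in windows from 250 bases before to 50 bases after each annotated start. Ccnd1 and Ccnd2 have no entry in that table. The search covered the E-box CACGTG, the word bound by MYC, the E2F words TTTCGCGC, TTTGGCGC, TTTCCCGC and TTTGCCGC, the GC box GGGCGG, the cAMP response element TGACGTCA and its short form TGACGT, and the cell cycle homology region TTTGAA, each on both strands, with overlapping matches counted separately; every TGACGTCA also holds TGACGT. Words and windows shown were chosen after the expression values, and some of the matches, had been seen. The Cdk4 promoter stands out by its E-boxes, 4 in a single window, and it is shown because Cdk4 had the smallest adjusted p among these genes. Capitals mark the E-boxes in the 250 bases before its start (chr10:127063285-127063534, plus strand, GRCm38.p6):

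Cdk4: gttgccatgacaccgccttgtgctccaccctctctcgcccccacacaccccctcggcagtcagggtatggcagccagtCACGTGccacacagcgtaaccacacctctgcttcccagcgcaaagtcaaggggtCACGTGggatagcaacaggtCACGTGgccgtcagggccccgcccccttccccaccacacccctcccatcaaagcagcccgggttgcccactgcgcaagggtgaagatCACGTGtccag

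Of 32851 promoter windows in the table, 7.15% held at least 1 E-box and 0.0883% held 3 or more. Cdk2 and the upstream start of Cdkn2a, which gives the Arf transcript, each held 1 E2F word, found in 2.26% of windows, and Cdkn2b held 1 cAMP response element, found in 1.79%. These short stretches are shown 5′ to 3′ on the gene's strand, with the match in capitals, and they lie at chr10:128705174-128705201, chr4:89294701-89294728 and chr4:89311061-89311088, all on the minus strand:

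Cdk2: accaggaactGCGGGAAAgttgtgcagc

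Cdkn2a: tctgggaagcTTTCCCGCgcgactgggg

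Cdkn2b: atttgtctcaTGACGTCAccaagtgtgg

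Cdk6 held 1 E-box, 220 bases before its start, and a second start of Cdkn2c held 1 just after it. The Ccnd3 and Cdkn2d windows held GC boxes, present in 35.7% of windows, and no E-box or E2F word. The short form TGACGT, in 7.51% of windows, was found in Cdk2, Cdkn2b and a second start of Ccnd3, and TTTGAA, in 17.9%, in Cdkn2b alone. A match is a description of the letters in these windows.

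Library totals ran from 30474586 to 35215640 counts. All 12 cardiomyocyte markers were above 3 counts in every library, and their summed level was 58000 to 70000 CPM (counts scaled to the size of each library) in controls and 70000 to 74000 with simvastatin. Markers of fibroblasts (8), endothelium (8), epicardium (7) and smooth muscle (7) were also all above 3 counts in every library. Smooth muscle markers summed to 2690 to 3750 CPM in controls and 730 to 972 with simvastatin, mostly by Acta2 (2580 ± 488 and 291 ± 87.0 CPM, SD, n = 4 per group). Of these 7 markers, all tested, 5 fell, while Cspg4 rose (1.06 on the log2 scale, edgeR adjusted p = 0.000996). Over all genes tested, 9.61% fell and 7.79% rose (edgeR adjusted p under 0.05). Macrophage markers (5 of 7 above 3 counts in every library) summed to 63.6 to 74.6 and 45.0 to 55.9 CPM, and 4 of 6 tested fell. Of the 4, Cx3cr1 was low (0.556 ± 0.0307 and 0.141 ± 0.0965 CPM, SD, n = 4 per group) and entered the test through its controls. Red cell markers summed to 7.16 to 11.0 and 14.7 to 33.0 CPM, and 3 of 5 tested rose. Of 8 fibroblast markers, 3 fell (Col3a1, Pdgfra and Tcf21) and 0 rose, while limma-voom called 1 fall and 0 rises. Markers of endothelium and epicardium went both ways. Emcn and Npr3 fell and Tek and Nfatc1 rose among 8 of endothelium, where limma-voom called 1 rise and DESeq2 3. Wt1 and Aldh1a2 fell and Msln rose among 7 of epicardium. Of the cardiomyocyte markers, Myh7 rose (edgeR adjusted p = 0.00255) and the other 11 did not pass. The part of these cells in the results was not tested. In bulk samples, fewer cells of a type, less RNA per cell and a change of these genes in cells of another type cannot be told apart. The header of each count column names a set, with replicates 1 and 3 of each group in set 1 and replicates 2 and 4 in set 2. The sources used here do not say what a set was.

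Of the 9 genes with enough counts to test, 4 fell with simvastatin and 0 rose. The genes that fell were Ccnd2, Cdk4, Cdk2 and Cdkn2c (edgeR, adjusted p under 0.05), while Ccnd1, Ccnd3, Cdk6, Cdkn2b and Cdkn2d did not pass. Cdkn2c, at few counts, passed the filter on low counts through its controls. With a filter of 1 CPM in at least 4 libraries it was not tested, and 3 of 8 members fell, where 10.7% of all genes did. Over all 16126 genes tested, 9.61% fell and 7.79% rose. No member had a rise at an unadjusted p under 0.05 in edgeR over the 8 libraries, and DESeq2 and limma-voom called 0 rises and the same 4 falls. In 5 of the 9 genes (the 4 that fell and Cdkn2d) all simvastatin libraries lay below all controls, as in 12.1% of genes tested, and in 0 of 9 they lay above, as in 11.0%. The 9 genes had a median log2 fold change of -0.35, against 0.01 for all genes. In set 1 alone only Cdk4 passed, and in set 2 alone Ccnd3, Cdk4 and Cdk2 passed. The treatment effect differed between sets for 0 of the 9 genes and for 0.0558% of all genes (edgeR interaction, adjusted p under 0.05).

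**Figure D1:**
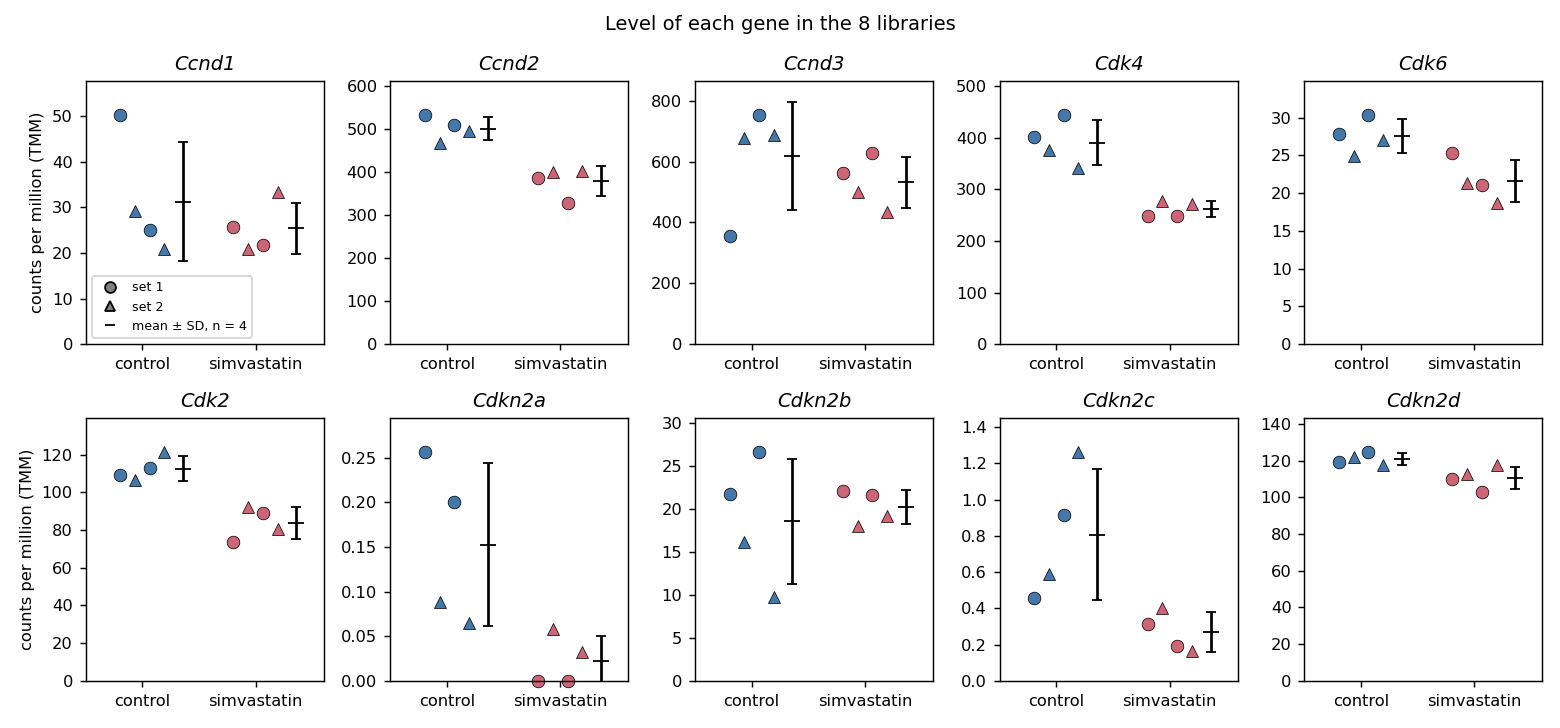
Level of each of the 10 genes in CPM (y axis, linear from 0, a scale of its own per gene) in the 4 control and 4 simvastatin libraries; circles are set 1, triangles set 2, bars the mean ± SD. The simvastatin libraries of Ccnd2, Cdk4 and Cdk2 all lie below their controls, and control replicate 1 lies apart from the other controls in Ccnd1 (50.2 CPM, high) and Ccnd3 (356 CPM, low).

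Among the D cyclins, cyclin D2 changed and cyclins D1 and D3 did not pass. Ccnd2 (ENSMUSG00000000184, chromosome 6, 127125162 to 127152193, minus strand, coordinates as in the files) stood at 532, 467, 509 and 496 CPM in control replicates 1 to 4. With simvastatin it stood at 387, 399, 327 and 403 CPM. The groups did not overlap. The means were 501 ± 27.0 and 379 ± 35.3 CPM (SD, n = 4 per group). Ccnd2 fell by 24.4%, with a log2 change of -0.40 ± 0.09 (SE; edgeR, adjusted p = 0.013). The change was -0.56 in set 1 alone and -0.26 in set 2 alone (edgeR adjusted p = 0.0622 and 0.0567), and the test of the difference between sets did not pass (edgeR adjusted p = 0.592). Leaving out any 1 library kept the call, with log2 fold changes from -0.44 to -0.34.

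Ccnd3 (ENSMUSG00000034165, chromosome 17, 47505051 to 47599691, plus strand) had the highest counts of these 10 genes. Its controls stood at 356, 677, 752 and 688 CPM, so replicate 1 held far less than replicates 2 to 4. The simvastatin libraries stood at 563, 501, 629 and 433 CPM, inside the range of the controls. The log2 fold change was -0.22 ± 0.21 (SE, edgeR adjusted p = 0.555). Without control replicate 1 it was -0.42, with an edgeR adjusted p of 0.0549. In set 2, which does not hold that library, Ccnd3 fell by 0.55 on the log2 scale (edgeR adjusted p = 0.00442), while set 1 gave 0.08. The difference between sets did not pass over all 8 libraries (-0.65 ± 0.38 SE, edgeR adjusted p = 0.613), and without control replicate 3 it was -1.27 (edgeR adjusted p = 0.000432). That call rests on control replicate 1 as the only control of set 1.

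Ccnd1 (ENSMUSG00000070348, chromosome 7, 144929931 to 144939925, minus strand) was the lowest D cyclin. Control replicate 1 stood at 50.2 CPM and the other controls at 29.1, 25 and 20.8. Simvastatin libraries stood at 25.7, 20.9, 21.8 and 33.3 CPM, and the groups overlapped. The log2 fold change without control replicate 1 was 0.02 ± 0.19 (SE, edgeR adjusted p = 0.965), against -0.30 ± 0.26 with it. Set 1 alone gave -0.67 and set 2 alone 0.12, with edgeR adjusted p of 0.264 and 0.779. Of the exonic bases of Ccnd1, 23.4% overlap LTO1 on the other strand, and the sources used here do not state whether strand was used in counting. LTO1 itself rose (control 23.9 ± 2.73 CPM, simvastatin 35.5 ± 2.41, SD, n = 4 each, edgeR adjusted p = 0.00672). Without strand, reads of LTO1 and Ccnd1 within the shared bases cannot be told apart.

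The mixture of the 3 D cyclins set control replicate 1 apart from the other 7 libraries. Levels per length (CPM per kilobase of exon) allow genes to be compared with each other. On that scale Ccnd3 made up 37.7% of the D cyclin sum in control replicate 1, where controls 2 to 4 had 57.8% to 59.0% and simvastatin libraries 49.7% to 64.5%. Ccnd2 made up 52.4% in that library and 37.3% to 38.9% in the other controls, and Ccnd1 made up 9.89% against 3.26% to 4.65%. The whole sum was 130 ± 15.9 CPM per kilobase in controls and 106 ± 5.68 with simvastatin (SD, n = 4 per group), and control replicate 1, at 108, lay among the simvastatin libraries (99.3 to 111). Ccna2, the S and G2 phase cyclin, was also low in that library, at 29.2 CPM where controls 2 to 4 had 69.7 to 95.2, while Rrm2 was not (351 CPM against 331 to 398). Fibroblast markers summed to 2310 CPM in control replicate 1 and 2540 in control replicate 3, against 1140 to 1150 in controls 2 and 4. Their part in these values was not tested.

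**Figure D2:**
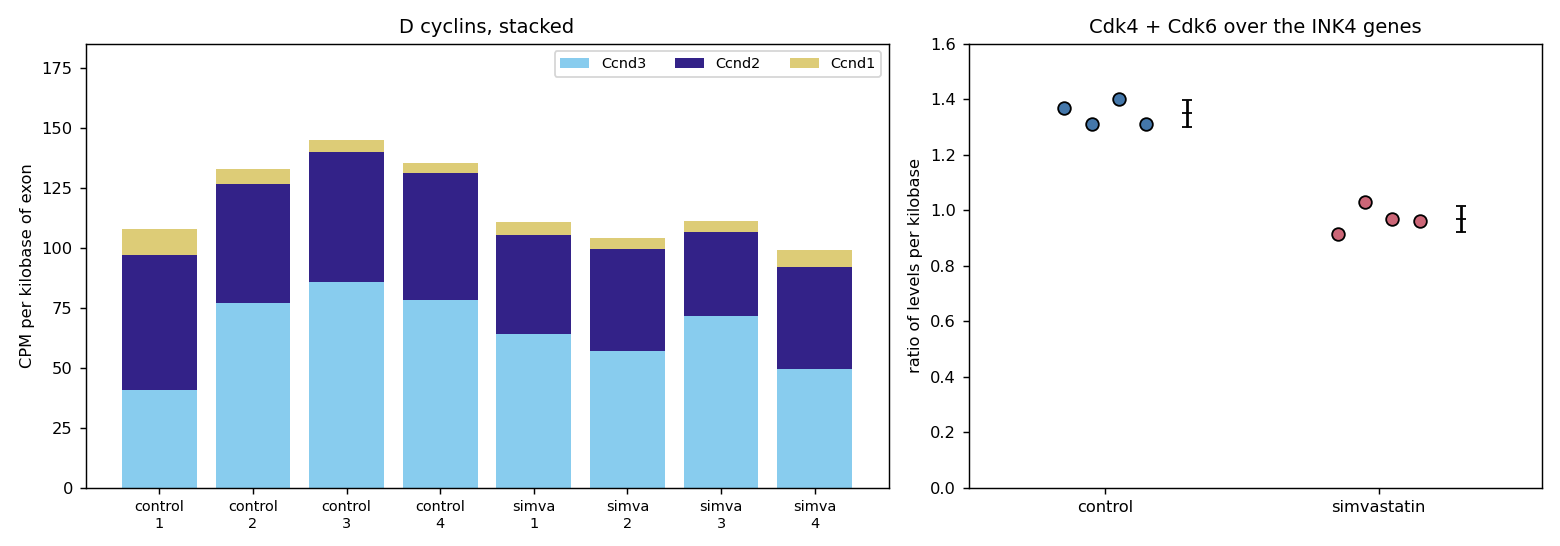
Left, CPM per kilobase of exon of Ccnd3, Ccnd2 and Ccnd1 stacked for each of the 8 libraries ("simva" is simvastatin). Right, the summed level of Cdk4 and Cdk6 divided by that of the 4 INK4 genes in each library, with the mean ± SD of 4; control replicate 1 has the least Ccnd3, and the ratio is 1.31 to 1.4 in controls and 0.915 to 1.03 with simvastatin.

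All 3 kinase genes had lower means with simvastatin, and Cdk4 and Cdk2 passed the test. Cdk4 (ENSMUSG00000006728, chromosome 10, 127063534 to 127067920, plus strand), a kinase partner of D cyclins and the highest of the 10 genes per length, stood at 403, 376, 444 and 342 CPM in control replicates 1 to 4. In the simvastatin libraries it stood at 249, 278, 249 and 271 CPM, all below the lowest control. The means were 391 ± 43.0 and 262 ± 14.8 CPM (SD, n = 4 per group). Cdk4 fell by 33.0%, with a log2 change of -0.58 ± 0.10 (SE; edgeR, adjusted p = 0.00247). It passed in set 1 alone (-0.78, edgeR adjusted p = 0.0169) and in set 2 alone (-0.39, edgeR adjusted p = 0.0165), and the difference between sets was not called (0.38 ± 0.15 SE, edgeR adjusted p = 0.349, edgeR unadjusted p = 0.0313). Without 1 library at a time the change stayed between -0.64 and -0.51. Tspan31 overlaps 18.6% of the exonic bases of Cdk4 on the other strand. For Tspan31 itself the controls had 152 ± 7.90 CPM and the simvastatin libraries 135 ± 5.81 (SD, n = 4 per group; edgeR adjusted p = 0.192).

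Cdk2 (ENSMUSG00000025358, chromosome 10, 128697939 to 128705051, minus strand), the kinase that works with cyclins E and A, stood at 109, 106, 113 and 121 CPM in controls. With simvastatin it stood at 73.8, 92.0, 88.9 and 80.3 CPM, with no overlap. Cdk2 fell by 25.6%, a log2 change of -0.43 ± 0.10 (SE; edgeR, adjusted p = 0.013), and the change was -0.47 in set 1 alone (edgeR adjusted p = 0.115) and -0.40 in set 2 alone (edgeR adjusted p = 0.0348). Cdk6 (ENSMUSG00000040274, chromosome 5, 3341485 to 3531008, plus strand), the second partner of D cyclins, was far lower: 27.8, 24.9, 30.3 and 27.1 CPM in controls and 25.4, 21.3, 21.1 and 18.7 with simvastatin. The groups overlapped by 1 library on each side, and the log2 fold change of -0.35 ± 0.12 did not pass (SE, edgeR adjusted p = 0.0834). It passed with set as a term (edgeR adjusted p = 0.0469) and without simvastatin replicate 1 (-0.43, edgeR adjusted p = 0.0443).

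**Figure D3:**
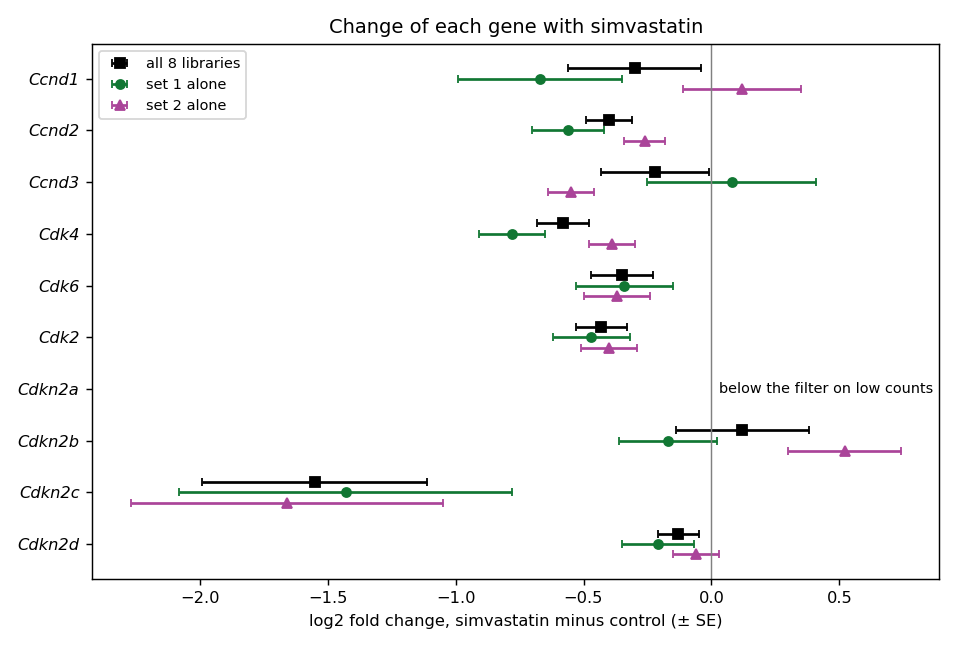
Log2 fold change (x axis, simvastatin minus control, ± SE) of each gene over all 8 libraries, in set 1 alone (2 against 2) and in set 2 alone (2 against 2). Ccnd2, Cdk4, Cdk6, Cdk2, Cdkn2c and Cdkn2d lie left of 0 in each fit, Ccnd1, Ccnd3 and Cdkn2b change side between sets, and Cdkn2a was too low to be fitted.

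The INK4 genes spanned the widest range of levels, from Cdkn2d, among the highest of the 10 genes per length, to Cdkn2a, near the limit of detection. Cdkn2d (ENSMUSG00000096472, chromosome 9, 21288410 to 21291407, minus strand) encodes p19INK4d, which is distinct from the Arf product of Cdkn2a. It stood at 119, 122, 125 and 117 CPM in controls and at 110, 112, 103 and 117 with simvastatin. The lowest control lay just above the highest simvastatin library, both near 117 CPM, and the log2 fold change of -0.13 ± 0.08 did not pass (SE, edgeR adjusted p = 0.341). It was the steadiest of these genes between libraries, with an SD of log2 CPM of 0.0899 over all 8.

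Cdkn2b (ENSMUSG00000073802, chromosome 4, 89306289 to 89311032, minus strand) encodes p15INK4b. Its controls were spread widely, at 21.8, 16.2, 26.6 and 9.74 CPM, and its simvastatin libraries lay closer together, at 22.1, 18.0, 21.6 and 19.2 CPM. The log2 fold change was 0.12 ± 0.26 (SE, edgeR adjusted p = 0.818). Set 1 gave -0.17 and set 2 gave 0.52 (edgeR adjusted p = 0.67 and 0.151), and without control replicate 4 the value was -0.10. The 2 controls of set 1, with the higher Cdkn2b levels, also had the higher sums of fibroblast markers given above. With simvastatin the libraries of set 1 again had the higher Cdkn2b levels, but the lower fibroblast sums (1260 and 1236 CPM, against 1440 and 1348 in set 2). The part of those cells was not tested.

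Cdkn2c (ENSMUSG00000028551, chromosome 4, 109660876 to 109667189, minus strand) encodes p18INK4c and was read with only 16, 20, 32 and 39 counts in the controls. The simvastatin libraries held 10, 14, 6 and 5 counts, all below the controls. The means were 0.806 ± 0.36 and 0.269 ± 0.111 CPM (SD, n = 4 per group), and the change of -1.55 ± 0.44 on the log2 scale passed (SE; edgeR, adjusted p = 0.0325). Cdkn2c passed the filter on low counts through its controls. Leaving out control replicate 3, control replicate 4 or simvastatin replicates 1, 3 or 4 ended the call (edgeR adjusted p up to 0.0947). Neither set alone gave a call, while the direction was the same in both (-1.43 and -1.66).

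Cdkn2a (ENSMUSG00000044303, chromosome 4, 89274471 to 89294653, minus strand) encodes p16INK4a and, from another first exon and reading frame, the p53 activator ARF; a count per gene cannot separate them. It was read with 9, 3, 7 and 2 counts in controls and with 0, 2, 0 and 1 counts with simvastatin, too few for the filter. In all, 21 counts stood against 3, a ratio of 0.153 with simvastatin (exact 95% interval 0.0292 to 0.513, for counting error only). The 4 simvastatin values in CPM lay below all controls (exact permutation test, two-sided p = 0.0286, the smallest that 4 against 4 allows). Control replicate 4 and simvastatin replicate 2 both held 2 counts, at 0.0647 and 0.0576 CPM. The separation, and with it this p, therefore rests on the scaling to library size. In a fit without the filter the edgeR adjusted p was 0.176.

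Per kilobase of exon, the order in controls was Cdk4 (120 ± 13.2), Cdkn2d (76.8 ± 2.03), Ccnd3 (70.5 ± 20.3), Ccnd2 (53.3 ± 2.87), Cdk2 (46.3 ± 2.67), Cdkn2b (13.3 ± 5.22), Ccnd1 (6.64 ± 2.77), Cdk6 (1.97 ± 0.160), Cdkn2c (0.300 ± 0.134) and Cdkn2a (0.13 ± 0.0776), in CPM per kilobase (SD, n = 4). The ranges of neighbours overlapped from Cdkn2d through Cdk2, between Cdkn2b and Ccnd1, and between Cdkn2c and Cdkn2a. The order was the same with simvastatin, with overlap between Cdkn2d and Ccnd3 and between Ccnd2 and Cdk2, and Cdk4, at 80.6 ± 4.55, still lay above Cdkn2d, at 70.3 ± 3.86. Exon lengths are summed over all transcripts of a gene, so the level of a gene with long, little-used exons is understated.

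The summed level of Cdk4 and Cdk6 was 1.37, 1.31, 1.4 and 1.31 times that of the 4 INK4 genes in controls 1 to 4. With simvastatin this ratio was 0.915, 1.03, 0.969 and 0.960. The means were 1.35 ± 0.0481 and 0.968 ± 0.0477 (SD, n = 4 per group), and the ranges did not overlap. The INK4 sum itself was 90.5 ± 6.87 CPM per kilobase in controls and 84.9 ± 3.14 with simvastatin, of which Cdkn2d made up 85.0% and 82.7%. In controls Cdk4 stood at 120 and Cdk6 at 1.97 CPM per kilobase, so the ratio mostly repeats the fall of Cdk4 given above. Without gene length its means were 2.98 and 2.16, so its size depends on the lengths used. The ratio is given as a description, since these genes were chosen with earlier results known.

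Genes whose levels followed those of a member most closely over the 8 libraries were found among 10019 protein-coding genes of at least 5 CPM, by the root mean square difference of log2 CPM after centring each gene. For Cdk4 they were Ahcy and Ran, with differences of 0.0459 and 0.0501, against a spread of Cdk4 itself of 0.328 (SD). For Ccnd3 they were Gorasp2 (0.05) and Cox5a (0.0778), against a spread of 0.370. For Ccnd2 they were Bik (0.0522) and Pbdc1 (0.0538), for Cdk2 Igf2bp1 (0.0539) and Osgepl1 (0.0624), and for Cdkn2d Eif3m (0.0285) and Mrpl30 (0.0378). For Cdk6 they were Ckb (0.0758) and Elp6 (0.0809), and for Cdkn2b Tmem165 (0.115) and Slc43a3 (0.152). The nearest genes lay farther off for Ccnd1, with Tmed5 at 0.198 and Bst2 at 0.202, and for Cdkn2c, with Hr at 0.369 and Stxbp6 at 0.374.

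Around these genes, 85 others of the same pathway in 9 lists were tested, of which 34 fell and 1 rose, where 9.61% of all genes fell and 7.79% rose. Over all genes tested the median log2 fold change was 0.01. The lists were chosen with earlier results of these data known, so their counts are given as a description. All 19 listed target genes of RB and E2F fell, and they are part of the 34. Their median change was -1.82 on the log2 scale (set 1 alone -2.03, set 2 alone -1.51), with a range from -2.57 to -0.84, beside -0.58 for Cdk4 and -0.40 for Ccnd2. Rrm2, a ribonucleotide reductase subunit, had -2.51 ± 0.17 and Mcm5, a subunit of the replicative helicase, -2.19 ± 0.13 (SE). Gins2 in this list shares 67.3% of its exonic bases with Gse1 on the other strand. No member with a mean over 1 CPM in controls changed as much as the smallest of these.

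Of 4 cyclins that activate CDK2, 3 fell, with a list median of -1.90 beside -0.43 for Cdk2. Ccne2, a cyclin E, stood at 45.2, 36.8, 33.0 and 46.7 CPM in controls and at 5.67, 11.1, 7.90 and 13.9 with simvastatin, or a log2 change of -2.07 ± 0.25 (SE; edgeR, adjusted p = 0.000356). Of the exonic bases of Ccne2, 17.4% overlap Ints8 on the other strand. Ccne1 had -1.89 and Ccna2, which shares 12.5% of its exonic bases with Exosc9 on the other strand, -1.91. The Ccna2 change was -1.09 in set 1 alone (edgeR adjusted p = 0.169) and -2.76 in set 2 alone (edgeR adjusted p = 2.5e-05), and the difference between sets was not called (edgeR adjusted p = 0.181, unadjusted p = 0.00625). Ccna1 stood at 0.400 ± 0.209 and 0.269 ± 0.128 CPM and did not pass.

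Of the 3 CIP/KIP inhibitors 1 rose. Cdkn1a, which encodes p21, stood at 269, 265, 273 and 257 CPM in controls and at 433, 415, 420 and 427 with simvastatin, or a log2 change of 0.67 ± 0.07 (SE; edgeR, adjusted p = 0.000168). Cdkn1b, which encodes p27, stood at 4.19, 1.98, 2.69 and 1.72 CPM and at 4.85, 4.46, 5.71 and 4.21, with no overlap but an edgeR adjusted p of 0.0568. Without control replicate 1 it passed (1.16, edgeR adjusted p = 0.0083), as it did in DESeq2 (adjusted p = 0.0139) and limma-voom (adjusted p = 0.036). Skp2, the F-box protein that marks p27 for degradation, fell by 1.41 on the log2 scale and was the 1 gene of 10 called in the list of D cyclin and inhibitor turnover, a share near that of all genes. Leaving out control replicate 3 or simvastatin replicate 4 added 1 rise to that list, of Fbxo31 (0.96) and Gsk3b (0.66).

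Of the RB family, Rbl1, which encodes p107, fell by 1.21 on the log2 scale (edgeR adjusted p = 0.00725), while Rb1 stood at 5.06 ± 0.699 and 5.22 ± 0.965 CPM and Rbl2 at 48.0 ± 16.3 and 52.0 ± 12.5 (SD, n = 4 per group). Among 10 E2F and DP factors 3 fell: the repressors E2f7 (-2.20) and E2f8 (-1.19), and Tfdp1 (-0.45), whose call ended without control replicate 1 or 3 or any of the simvastatin libraries. E2f8 shares 11.2% of its exonic bases with Gm2788 on the other strand. The activators E2f1, E2f2 and E2f3 did not pass, with log2 fold changes of 0.02, -0.26 and -0.13. Of 8 genes of CDK assembly and activation, 3 fell: the CDK subunits Cks2 (-1.22) and Cks1b (-1.0), and the phosphatase Cdc25a (-0.40), whose call ended without control replicate 2 or 4 or any of the simvastatin libraries.

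Of 14 transcription factors known at D cyclin promoters 4 fell and 0 rose: Mycl (-3.10), Etv4 (-1.39), Fosl2 (-0.91) and Junb (-0.83; 7.52% of its exonic bases lie on Prdx2). With an unadjusted edgeR p under 0.05 there were 7 falls and 0 rises, where 4764 of all 16126 genes had such a p in either direction. DESeq2 called 6 falls and 0 rises (11.4% and 10.5% of all genes), and limma-voom 3 and 0 (9.52% and 7.84%). Mycl was read with 5 to 12 counts in the simvastatin libraries and passed the filter on low counts through its controls, at 37 to 127 counts. The call of Etv4 ended without control replicate 1 or 3 or any of the simvastatin libraries. Myc, which binds E-boxes such as those of Cdk4, stood at 46.3 ± 19.3 and 26.2 ± 2.56 CPM, a log2 fold change of -0.82 that did not pass (edgeR adjusted p = 0.0528), and Mycn stood at 36.6 ± 3.45 and 39.5 ± 2.99 (SD, n = 4 per group). Of 15 regulators of the Cdkn2a-Cdkn2b locus 1 fell, the Polycomb gene Eed (-0.60, edgeR adjusted p = 0.00778; 6.82% of its exonic bases lie on E230029C05Rik), a share below that of all genes. Ezh2, the Polycomb methyltransferase, stood at 14.7 ± 3.40 and 9.0 ± 3.15 CPM (edgeR adjusted p = 0.0938) and passed without control replicate 1 (-0.86) or simvastatin replicate 3 (-0.93). Its change was -0.10 in set 1 alone and -1.41 in set 2 alone (edgeR adjusted p = 0.876 and 0.000527). The difference between sets was not called (-1.34 ± 0.31 SE, edgeR adjusted p = 0.108, edgeR unadjusted p = 0.00171).

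**Figure D4:**
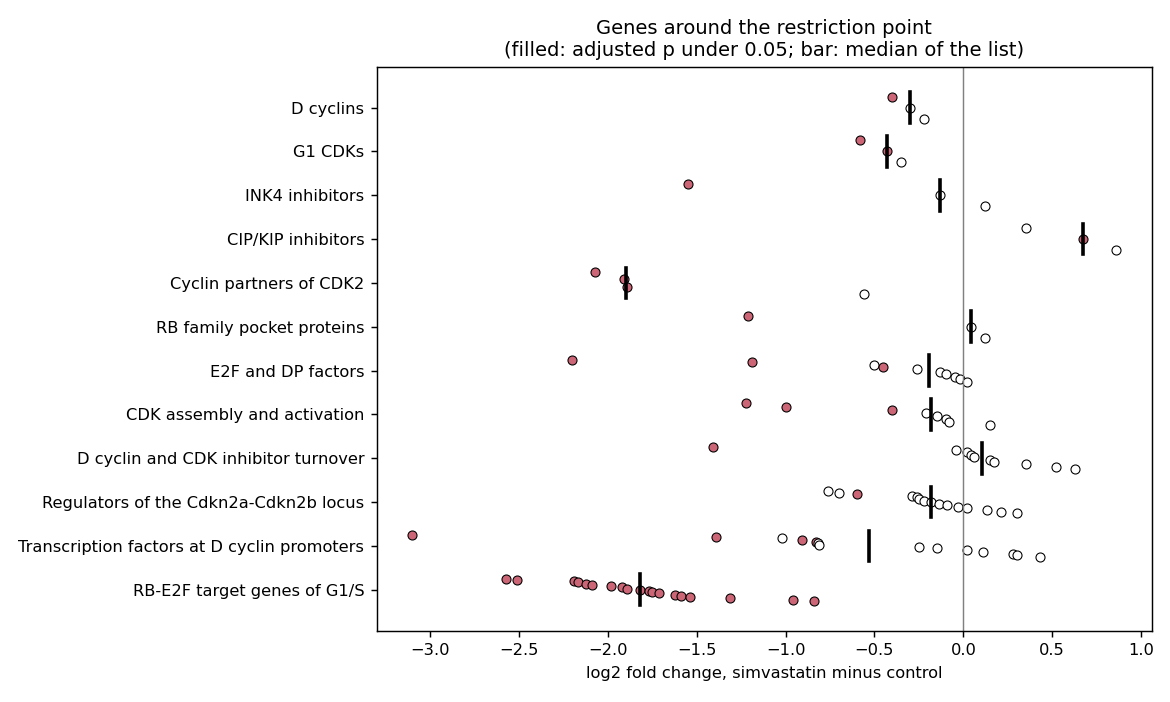
Log2 fold change (x axis, simvastatin minus control) of each tested gene in the 3 groups of members and the 9 pathway lists; filled points passed at an adjusted p under 0.05, bars are list medians. The 19 listed RB and E2F targets all lie left of -0.8 and have a median of -1.82, while D cyclins and G1 kinases lie between -0.58 and -0.22.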

How the data were processed

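RNA-seq values were gene counts deposited by the authors. The builds GRCm38 and mm10 and the tools featureCounts, Subread 1.5.2, STAR 2.5.2b and Trimmomatic 0.36 are named per the submitters' processing notes. Per the file headers, each table gives Ensembl genes, exon positions and an exonic length. The sources used here do not give the strand setting or annotation release. Symbols came from GENCODE M21 of the same build (99.3% of 49315 genes matched), and 0 rows lacked a gene name. Groups and replicates follow the sample titles, and sets follow the headers of the count columns.

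CPM used TMM factors, and levels per kilobase divide by the files' length. Genes passed filterByExpr (16126 kept of 32927 with any count). The test was edgeR 4.0.16 quasi-likelihood (R 4.3.3), treatment only, two-sided, Benjamini-Hochberg adjusted over all genes, at 0.05, with an SE from the fold change and its F. Differences between sets were tested as an interaction. Over 20 draws of simulated data for this comparison (16126 genes), recovery was 2.99% to 17.9% for 1.5-fold changes. It was 41.8% to 62.7% for 2-fold and 83.3% to 97% for 4-fold changes. Of the calls, 0.99% to 8.49% were false (5.61% over all draws). The draws gave 92 to 120 calls, against 2805 in the data, so a call needed a smaller p-value there. These shares may therefore understate recovery in the data. Changes as small as those of most members here can still be missed. Alternatives were other scalings and filters, DESeq2 1.42.0, limma-voom (limma 3.58.1), a replicate block, set as a term, each set alone, each library left out and, added after the data were seen, libraries of a group with the same header number summed. Library pairs within groups differed by more than sampling noise (chi-square per degree of freedom at least 15.1). Pairs sharing a header number gave 56.8 and 73.6 in controls and 54.4 and 37.9 with simvastatin. Pairs within a set gave 58 and 19.6 in controls and 21.7 and 15.1 with simvastatin. Whether any pair came from the same culture was not tested. The exact test used scipy 1.17.1. Up to 4 genes per list with the smallest p were named by rule; other pathway and marker genes, and overlapping genes, were chosen after their values were seen. Members, lists and the rule for named genes were chosen with earlier results of these data known.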

Additional observations from a re-analysis of the deposited data

Results flagged for a closer look

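A sample far from the other 3 of its group was looked for in 116 groups of 4, of which chance gives about 1 in 20, and 5 were found. In control replicate 1 the share of Ccnd3 in the D cyclin sum was 37.7% against 57.8% to 59.0% in the other controls, and the share of Ccnd2 was 52.4% against 37.3% to 38.9%. Rb1 stood at 4.02 CPM in control replicate 2 against 5.29 to 5.50. Ccna1 stood at 0.461 CPM in simvastatin replicate 4 against 0.194 to 0.221, and Cbx7 at 0.756 CPM in simvastatin replicate 1 against 0.198 to 0.290, both at levels of few counts. No member and no named pathway gene differed between the sets in its treatment effect at an edgeR adjusted p under 0.05.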

How the results depend on the processing

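Of 170 refitted values of the 9 tested members, 150 kept direction and side of the threshold, 12 lost the call, 3 gained it and 5 changed direction. Cdk4 kept its call in every alternative run, while Ccnd2 lost it in each set alone and Cdk2 in set 1 alone. The direction changed for Ccnd1 in set 2 alone (0.12) and without control replicate 1 (0.02), for Ccnd3 in set 1 alone (0.08), and for Cdkn2b in set 1 alone (-0.17) and without control replicate 4 (-0.10). Without 1 library at a time Ccnd1 ran from -0.46 to 0.02 and Cdkn2b from -0.10 to 0.35. Among pathway genes it changed for Rb1 without control replicate 2 (-0.05) or simvastatin replicate 1 (-0.09), and for Rbl2 in set 2 alone (-0.02) and without control replicate 3 (-0.07), with ranges of -0.09 to 0.11 and -0.07 to 0.29 without 1 library. Of 644 refitted values of 34 named pathway genes, 32 lost a call and 18 gained one. Losses included Ccna2, Rbl1, Cdc25a and Tfdp1 in set 1 alone and Fosl2, Eed, Etv4 and Tfdp1 in set 2 alone. Summing libraries with the same header number (2 against 2, chosen after seeing the data) called 1626 rises, 1914 falls and 3 members, Ccnd2, Cdk4 and Cdk2, but not Cdkn2c. Members that fell numbered 1 in set 1 alone and 3 to 4 with a library left out, and 0 rose in any fit. Over all genes, 1256 rose and 1549 fell, against 648 and 979 in set 1 alone, and 817 to 1115 rose and 1185 to 1417 fell without 1 library. The replicate block called 3 members, without Cdkn2c (edgeR adjusted p = 0.102). Control and simvastatin libraries of the same replicate number did not deviate together (correlations -0.143, 0.045, 0.133 and -0.162). Even the best match of a control with any simvastatin library reached only 0.362, so these values cannot settle whether libraries were paired.

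The treatment effect differed between sets for 9 genes, none of them members, but for 981 with no filter, Ccnd3 among them, and for 0 to 1213 without 1 library (316 without control replicate 1, 1213 without control replicate 3, 0 otherwise); the cause was not tested. Differences between sets smaller than their SE changed sign without a library: for Cdk6 0.06, 0.00, 0.09 and 0.07 (without control replicates 1 and 4 and simvastatin replicates 1 and 4), for Cdk2 -0.01, -0.08 and -0.02 (control 2, simvastatin 1 and 2), and for Cdkn2c 0.21, 0.38, 0.14 and 0.26 (controls 1 and 4, simvastatin 1 and 4). Their ranges were -0.20 to 0.09, -0.08 to 0.18 and -1.02 to 0.38. Without gene length the kinase to INK4 ratio was 2.98 and 2.16. Depth limits Cdkn2a and Cdkn2c.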
